A study of Mus musculus with 10 samples.

Results

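The SREBP1 fatty acid synthesis genes are *Srebf1* and 9 genes of hepatic lipogenesis, *Fasn*, *Acaca*, *Acacb*, *Acly*, *Scd1*, *Elovl6*, *Me1*, *Thrsp* and *Pnpla3*. They were given as a list of gene names and found in the count table by matching its Ensembl identifiers to gene symbols. All 10 had a row, and all 10 were among the 12147 genes tested. Liver RNA came from 10 wild-type germ-free (GF) C57BL/6 mice, which have no microbiota of their own. Of these, 5 took 80 μg of microbiota-derived extracellular vesicles (MEV) in PBS by mouth (GF+MEV), and 5 took PBS alone (GF+PBS), with 2 doses per week for 3 weeks. The vesicles had been isolated from the caecal content and stool of control specific-pathogen-free mice. The comparison asks how liver gene expression differs after MEV. The age and sex of the GF mice, their feeding state and the hour at which the liver was taken are not given in the sources used here.

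SREBP1, the protein made from *Srebf1*, is a transcription factor that is anchored in the membrane of the endoplasmic reticulum. It has to be escorted to the Golgi apparatus and cut there before it can enter the nucleus, a step that messenger RNA levels do not measure. In the liver it is known for switching on, together with the carbohydrate-responsive factor ChREBP, the enzymes that turn citrate into acetyl-CoA, malonyl-CoA, palmitate and then longer and monounsaturated fatty acids, above all after feeding and under insulin.

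The DNA before the transcription start is shown for *Srebf1* and *Fasn*, whose levels moved most closely together, for *Pnpla3*, which had the largest fold difference among the 10 genes, and for *Mid1ip1*, the relative of *Thrsp* that differed between the groups. The 250 bases before a RefSeq start on GRCm38.p6 are written 5′ to 3′ on the strand of the gene, and capitals mark letters that match a GC box or a CCAAT box on either strand.
*Srebf1*, chr11:60210472-60210721, minus strand: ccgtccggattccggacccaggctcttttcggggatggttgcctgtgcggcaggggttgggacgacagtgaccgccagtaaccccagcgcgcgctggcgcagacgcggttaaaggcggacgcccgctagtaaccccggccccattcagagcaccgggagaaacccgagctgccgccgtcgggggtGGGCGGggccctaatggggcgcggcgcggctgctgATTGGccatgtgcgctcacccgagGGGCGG
*Fasn*, chr11:120824548-120824797, minus strand: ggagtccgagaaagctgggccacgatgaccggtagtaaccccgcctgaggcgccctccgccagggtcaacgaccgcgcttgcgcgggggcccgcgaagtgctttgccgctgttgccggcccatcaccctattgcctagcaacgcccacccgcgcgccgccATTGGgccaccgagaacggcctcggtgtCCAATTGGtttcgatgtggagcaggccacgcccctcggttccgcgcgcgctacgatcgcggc
*Pnpla3*, chr15:84167566-84167815, plus strand: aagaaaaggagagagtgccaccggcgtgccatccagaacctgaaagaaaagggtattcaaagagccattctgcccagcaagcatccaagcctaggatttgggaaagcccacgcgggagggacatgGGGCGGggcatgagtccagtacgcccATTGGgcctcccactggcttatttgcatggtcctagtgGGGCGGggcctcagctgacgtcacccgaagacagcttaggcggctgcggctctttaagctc
*Mid1ip1*, chrX:10717115-10717364, plus strand: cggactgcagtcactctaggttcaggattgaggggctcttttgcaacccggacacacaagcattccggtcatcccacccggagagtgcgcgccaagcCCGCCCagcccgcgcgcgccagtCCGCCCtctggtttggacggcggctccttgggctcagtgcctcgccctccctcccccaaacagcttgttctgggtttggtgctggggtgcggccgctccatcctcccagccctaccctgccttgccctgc
RefSeq entries were matched for 9 of the 10 genes, with 12 starts in all, and not for *Scd1*. *Srebf1* had 3 of these starts, and counts per gene cannot tell their transcripts apart. Only the *Srebf1* window shown held both a CCAAT box and GC boxes. Another held GC boxes alone, and the last a CCAAT box alone. In the *Thrsp* window 180 bases lie in exons of the gene, and the windows of *Acacb*, *Elovl6* and *Me1* hold fewer such bases. Each window was searched on both strands for the sterol regulatory element TCACNCCAC, the E-box CACGTG, the CCAAT box CCAAT, which binds NF-Y, and the GC box GGGCGG, which binds Sp1. The CCAAT box was in 7 of the 12 windows and in 33.8% of all 32851 windows of that table. The GC box was in 5 of the 12 and in 32.7% of all. Neither the sterol element, present in 1.05% of all windows, nor the E-box, present in 6.02%, was in any of the 12, which says only that those letters are not in these windows. The window of *Fasn* held 3 CCAAT boxes, and a pair of them shared bases in opposite directions. The window of *Mid1ip1* held 2 GC boxes and no CCAAT box. It lies inside the span given for the gene below, after the annotated start of that span.

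None of the 10 genes differed between GF+MEV and GF+PBS by edgeR's quasi-likelihood test with Benjamini-Hochberg adjustment over all tested genes (threshold 0.05). Across all genes 7.64% passed, 4.12% higher and 3.52% lower in GF+MEV. At an unadjusted edgeR p under 0.05, 3 of the 10 passed, *Acly*, *Me1* and *Pnpla3*, each with a lower value in GF+MEV. Of all genes, 21.2% passed in either direction. DESeq2 called 1 of the 10, *Pnpla3*, where it called 9.89% of all genes, and limma-voom called 0, where it called 7.79%. In none of the 10 did the groups separate without overlap, as they did in 7.39% of all genes. The log2 fold change of GF+MEV over GF+PBS (log2FC) was positive in 3 of the 10 and negative in 7, with a median of -0.16 against -0.0037 over all genes. Libraries held 15746119 to 20523649 counts on genes, and levels below are given as CPM, which express a count relative to the TMM-adjusted library total. Nothing in the labels says more of the replicates than that they were separate mice, numbered 1 to 5 in each group. In whole liver, fewer cells of a type and less RNA per cell cannot be told apart.

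The spread within GF+PBS was wide for these genes. GF+PBS replicates 1 and 3 were both below replicates 2, 4 and 5 in 9 of the 10, an order that 18.3% of all genes had. In the tenth, *Me1*, they were both above, as in 15.4% of all genes. This split was taken from these same livers. The genes also do not vary independently (median r of 0.79 over all pairs), so these counts are a description. All 36 pairs without *Me1* had a positive r (median 0.86), and all 9 pairs with *Me1* a negative one (median -0.69). Some pairs were looser within GF+MEV, as *Fasn* and *Acly*, with r of 0.23 there and 0.92 within GF+PBS. *Srebf1* and *Fasn* had 0.99 within each group. The median SD of log2 CPM over the 10 genes was 0.42 in GF+PBS and 0.24 in GF+MEV, and over all genes it was 0.16 and 0.15. The distance between livers over the 10 genes, as the root of the mean squared log2 difference, was 0.081 for GF+PBS replicates 4 and 5 and 1.17 for replicates 1 and 5. It was 0.50 for GF+PBS replicates 1 and 3, 0.24 for replicates 2 and 4 and 0.26 for replicates 2 and 5. Among GF+MEV livers this distance was 0.20 to 0.53. When the counts of GF+PBS replicates 1 and 3 were added together, and likewise those of replicates 4 and 5, with replicate 2 left single, edgeR called 0 of the 10. That grouping was chosen from these same values, although replicate 2 was nearer to replicates 4 and 5 than replicates 1 and 3 were to each other. It also leaves fewer GF+PBS units to compare, so this 0 adds no support to the main result.

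**Figure D1:**
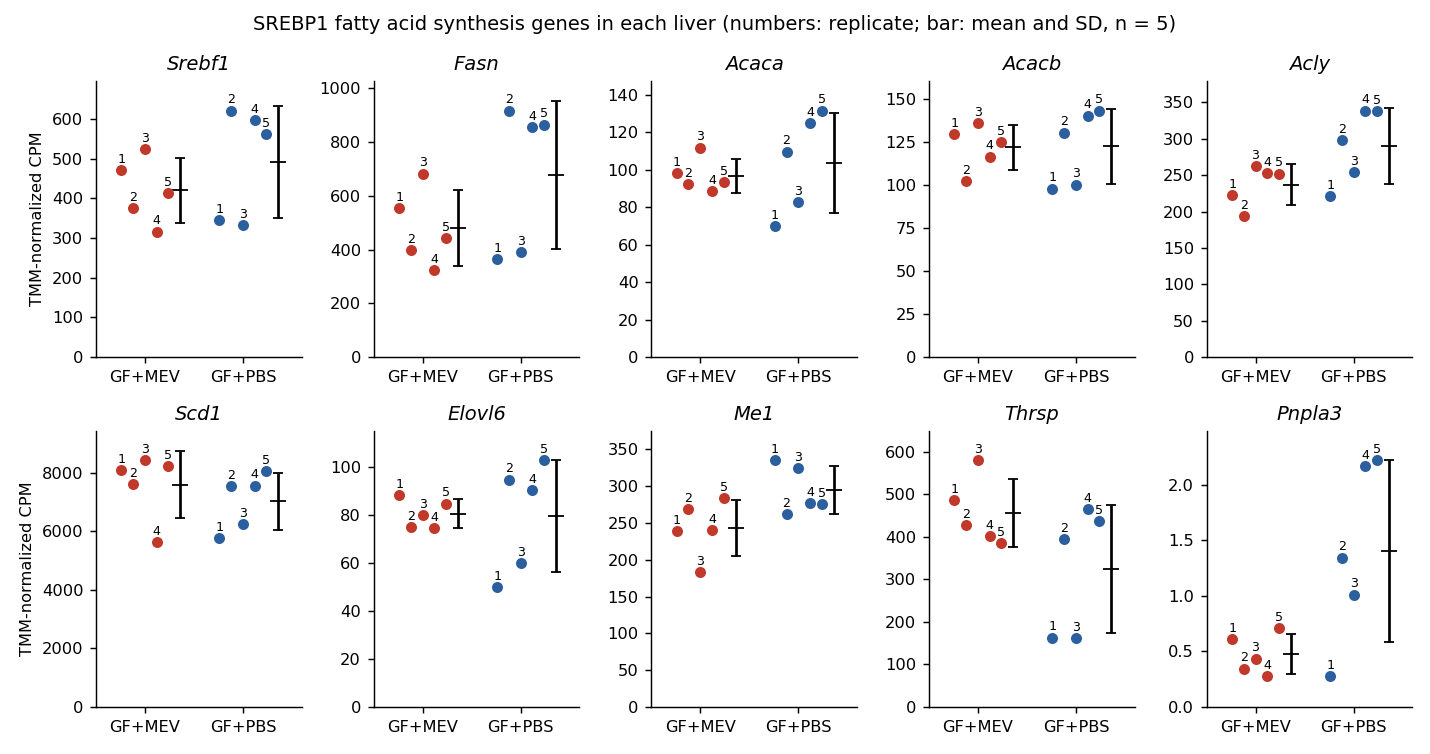
TMM-normalized CPM of each of the 10 genes (1 panel per gene, vertical axes from 0) in the 5 GF+MEV (red) and 5 GF+PBS (blue) livers, numbered by replicate, with the mean and SD of each group as a bar. GF+PBS replicates 1 and 3 lie below the other 3 GF+PBS livers in every panel except *Me1*, and the groups overlap in all 10.

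*Srebf1* (ENSMUSG00000020538, chromosome 11, 60199089 to 60222581, minus strand, GRCm38) encodes SREBP1 itself. Its level was 471, 375, 524, 316 and 413 CPM in GF+MEV replicates 1 to 5. In GF+PBS replicates 1 to 5 it was 345, 621, 332, 598 and 562 CPM. The GF+MEV livers lay inside the range of the GF+PBS livers except for replicate 4, which was the lowest of the 10. The group means were 419.7 ± 81.0 and 491 ± 141 CPM (SD, n = 5 each), and the log2FC was -0.23 (SE 0.24, edgeR adjusted p = 0.521). The limma-voom 95% confidence interval ran from -0.59 to 0.20, without adjustment for the number of genes. This and later limma-voom intervals surround limma-voom's own estimates, here -0.20, which differ from those of edgeR. An exon of *Rai1* on the other strand covers 1.94% of the exonic length.

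*Acly* and *Me1* supply the pathway, the first by cutting citrate into acetyl-CoA in the cytosol and the second, malic enzyme, by making NADPH. *Acly* (ENSMUSG00000020917, chromosome 11, 100476353 to 100528000) stood at 223, 194, 263, 253 and 252.1 CPM in the GF+MEV livers and at 221, 298, 254, 339 and 338 CPM in the GF+PBS livers. GF+PBS replicates 2, 4 and 5 were above every GF+MEV liver, and replicates 1 and 3 lay inside the GF+MEV range. The log2FC was -0.29 (SE 0.14, edgeR adjusted p = 0.156), and without GF+PBS replicate 1 it was -0.38 and passed (edgeR adjusted p = 0.0382). *Me1* (ENSMUSG00000032418, chromosome 9, 86581371 to 86695953) stood at 239, 269, 184, 240.0 and 284 CPM in GF+MEV and at 335, 262, 324, 277 and 275 CPM in GF+PBS. The groups overlapped, and *Me1* ran against the other genes from liver to liver. Its highest values were in GF+PBS replicates 1 and 3, and its lowest was in GF+MEV replicate 3, where 7 of the 10 genes had their highest value of that group. Its log2FC was -0.28 (SE 0.13, edgeR adjusted p = 0.132).

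*Acaca*, *Acacb* and *Fasn* form the core of synthesis. *Acaca* and *Acacb* encode the acetyl-CoA carboxylases that make malonyl-CoA, in the cytosol for chain building and at the mitochondrion for the control of fatty acid oxidation, and *Fasn* encodes the synthase that assembles palmitate. *Fasn* (ENSMUSG00000025153, chromosome 11, 120805846 to 120824547) stood at 553, 399, 682, 323 and 441 CPM in GF+MEV replicates 1 to 5. In GF+PBS it stood at 364, 916, 391, 855 and 864 CPM. GF+PBS replicates 2, 4 and 5 were above every GF+MEV liver, whereas replicates 1 and 3 were among the 3 lowest of the 10. The means were 479 ± 140.4 and 678 ± 275 CPM (SD, n = 5 each), the log2FC was -0.50 (SE 0.35, edgeR adjusted p = 0.297), and the limma-voom 95% interval ran from -1.01 to 0.14. The highest GF+PBS liver had 2.51 times the level of the lowest, a range that was wider than the difference between the groups.

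*Acaca* (ENSMUSG00000020532, chromosome 11, 84129672 to 84401651) lay between 88.8 and 112 CPM in GF+MEV (median 93.5) and between 70.2 and 132 CPM in GF+PBS (median 109.7). Its log2FC was -0.10 (SE 0.18, edgeR adjusted p = 0.752). *Acacb* (ENSMUSG00000042010, chromosome 5, 114146535 to 114250761) lay between 102 and 136 CPM in GF+MEV and between 97.8 and 143 CPM in GF+PBS, a log2FC of -0.01 (SE 0.14, edgeR adjusted p = 0.986). Both carboxylases thus had GF+MEV values inside the range of the GF+PBS livers, and limma-voom's 95% intervals held differences of -0.38 to 0.25 for *Acaca* and -0.24 to 0.25 for *Acacb*.

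*Elovl6* extends palmitate to stearate, and *Scd1* puts the double bond into both. *Elovl6* (ENSMUSG00000041220, chromosome 3, 129532355 to 129638495) stood at 88.2, 74.9, 79.8, 74.3 and 84.6 CPM in GF+MEV and at 49.8, 94.6, 59.7, 90.3 and 103 CPM in GF+PBS. All 5 GF+MEV livers fell into the gap between the pair of low and the 3 high GF+PBS livers, and the log2FC was 0.02 (SE 0.21, edgeR adjusted p = 0.971). *Scd1* (ENSMUSG00000037071, chromosome 19, 44394455 to 44407879) was between 5635 and 8430.4 CPM in GF+MEV and between 5771 and 8050.3 CPM in GF+PBS. Its group means were 7602 ± 1139 and 7037 ± 973 CPM (SD, n = 5 each), and the log2FC was 0.11 (SE 0.14, edgeR adjusted p = 0.630) with a limma-voom 95% interval from -0.13 to 0.35.

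*Thrsp*, also called Spot 14, encodes a small protein that promotes lipogenesis and responds to thyroid hormone and carbohydrate. It had the largest positive log2FC of the 10 genes. *Thrsp* (ENSMUSG00000035686, chromosome 7, 97412938 to 97417730) stood at 487, 427, 579.8, 402 and 384 CPM in GF+MEV. In GF+PBS it stood at 163, 395, 161, 464 and 437 CPM. Replicates 1 and 3 of GF+PBS were far below all other livers, and the other 3 lay inside the GF+MEV range. The means were 456 ± 79.2 and 324 ± 149.9 CPM (SD, n = 5 each), and the log2FC of 0.49 did not pass (SE 0.36, edgeR adjusted p = 0.313). The limma-voom 95% interval was 0.04 to 1.22.

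*Pnpla3* encodes a lipid droplet protein with hydrolase activity whose transcript is raised by SREBP1 in refeeding. *Pnpla3* (ENSMUSG00000041653, chromosome 15, 84167837 to 84187236) had few reads, with 10, 5, 9, 5 and 11 counts in GF+MEV replicates 1 to 5 and 5, 24, 17, 43 and 37 counts in GF+PBS. Scaled to library size this was 0.610, 0.345, 0.435, 0.281 and 0.707 CPM against 0.278, 1.34, 1.01, 2.17 and 2.22 CPM. GF+PBS replicates 2 to 5 were above all GF+MEV livers, and GF+PBS replicate 1 was the lowest of the 10. The log2FC was -1.56 (SE 0.51, edgeR adjusted p = 0.0513). Calls differed by tool and library, with an adjusted p of 0.0126 in DESeq2, 0.177 in limma-voom, 0.0381 in edgeR with upper-quartile scaling and 0.00375 in edgeR without GF+PBS replicate 1. An exon of Gm49513 on the same strand covers 6.78% of its exonic length.

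**Figure D2:**
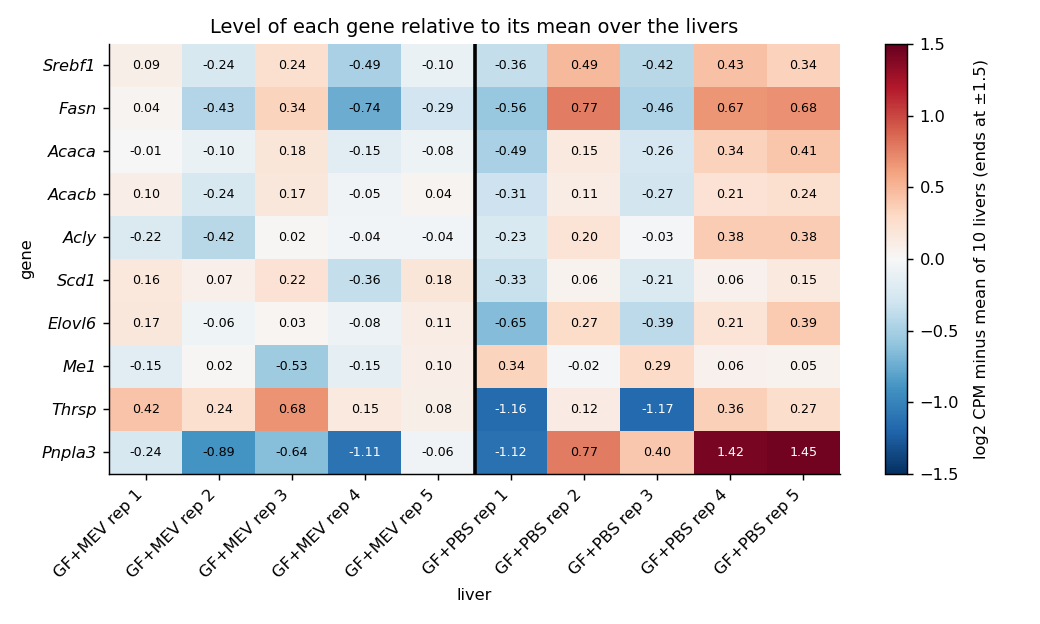
Log2 CPM of each gene (rows) in each liver (columns, GF+MEV left and GF+PBS right of the black line) minus the gene's mean over the 10 livers, with the colour scale ending at ±1.5. GF+PBS replicates 1 and 3 are below the mean in 9 rows for replicate 1 and in 8 for replicate 3, and both are above it for *Me1*.

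Divided by exonic length, *Scd1* was the most abundant of the 10 messages, at 1496 CPM per kilobase over the 10 livers, followed by *Thrsp* at 178, *Srebf1* at 80.8, *Me1* at 69.9, *Fasn* at 52.9, *Acly* at 49.9, *Acacb* at 12.7, *Elovl6* at 12.4, *Acaca* at 5.88 and *Pnpla3* at 0.608. The livers' ranges set *Scd1* apart, at 1152 to 1723 CPM per kilobase, and at the low end *Acaca*, at 4.11 to 7.71, and *Pnpla3*, at 0.179 to 1.44. The range of *Thrsp*, at 73.7 to 265 CPM per kilobase, overlapped that of *Srebf1*, at 56.1 to 110.1, but within each liver *Thrsp* was the higher of the pair, in 10 of 10. Other neighbours changed places from liver to liver. *Srebf1* was above *Me1* in 5 of 10 livers, *Me1* above *Fasn* in 6, *Fasn* above *Acly* in 5 and *Acacb* above *Elovl6* in 5. All livers had *Acly* above *Acacb*, with no overlap.

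Each gene was also read against *Srebf1* in the same liver, as the log2 ratio of the CPM values with a pseudocount of 0.5 CPM, which asks whether its change differed from that of *Srebf1*. The test was an exact two-sided permutation test, which for 5 livers against 5 can reach 0.00794 at the lowest. Of the 9 ratios, 0 passed after Benjamini-Hochberg adjustment and 2 had an unadjusted p under 0.05. A single ratio at the lowest p has an adjusted p of 0.0714 over 9 ratios, so it could not pass alone. *Thrsp* came nearest. Its log2 ratio to *Srebf1* lay between -0.10 and 0.35 in GF+MEV and between -1.08 and -0.36 in GF+PBS, without overlap, a difference of 0.82 (exact permutation test, p = 0.00794, adjusted p = 0.0714, higher in 5 of 5 GF+MEV livers than in any GF+PBS liver). The ratio of *Pnpla3* to *Srebf1* differed by -0.66 (exact permutation test, p = 0.0476, adjusted p = 0.143). With a pseudocount of 0.01 CPM it differed by -1.12 (exact permutation test, p = 0.0556, adjusted p = 0.143), which left *Thrsp* as the 1 ratio with an unadjusted p under 0.05. The ratio of *Elovl6* differed by 0.26 (exact permutation test, p = 0.0556, adjusted p = 0.143), and that of *Scd1* by 0.30 (exact permutation test, p = 0.0635, adjusted p = 0.143). *Fasn* kept close to *Srebf1*, with log2 ratios of 0.03 to 0.38 in GF+MEV and 0.08 to 0.62 in GF+PBS (difference -0.24, exact permutation test, p = 0.103, adjusted p = 0.186). Without GF+PBS replicate 1, the ratios of *Thrsp* and *Pnpla3* passed (exact permutation test over 126 labelings, p = 0.00794 and adjusted p = 0.0357 for both). Both were at the lowest p that test can reach, and neither would have passed alone.

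**Figure D3:**
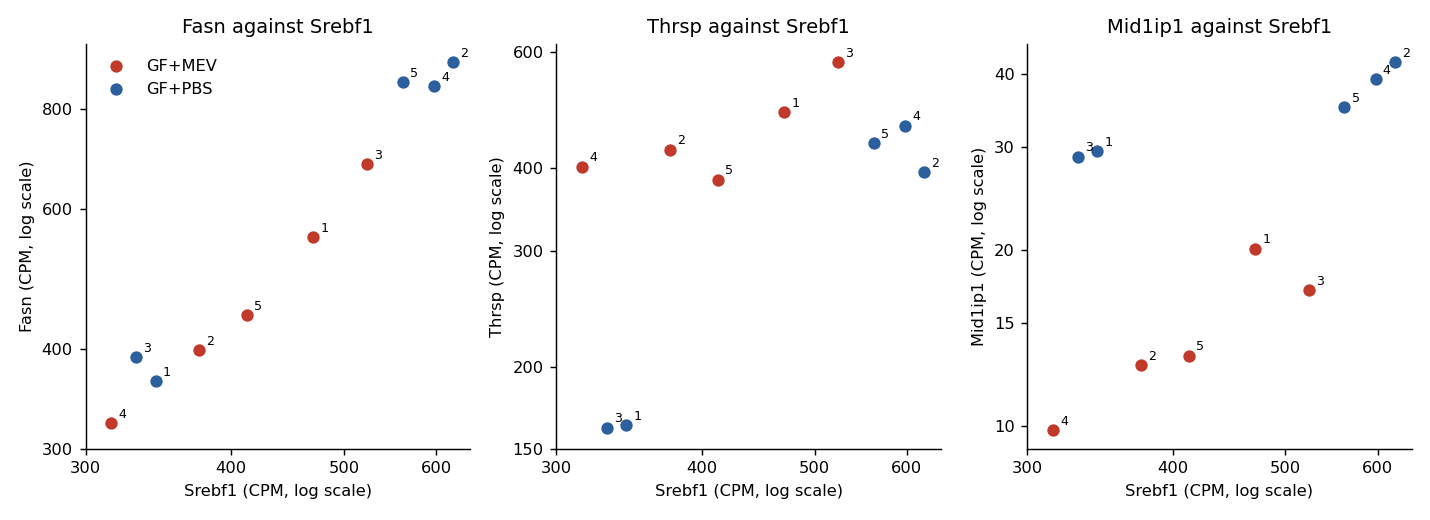
CPM of *Fasn*, *Thrsp* and *Mid1ip1* (vertical, log scale) against that of *Srebf1* (horizontal, log scale) in each GF+MEV (red) and GF+PBS (blue) liver, numbered by replicate. The livers of both groups lie along 1 band for *Fasn*, whereas at a similar *Srebf1* level the GF+MEV livers are higher for *Thrsp* and lower for *Mid1ip1*.

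Other genes of fatty acid synthesis, elongation, desaturation and NADPH supply numbered 25, and all 25 were tested. By edgeR 0 rose and 1 fell, *Mid1ip1*, which is 4.0% against 3.52% of all genes lower in GF+MEV. At an unadjusted p under 0.05, 9 of the 25 passed, all with lower values in GF+MEV. Of all genes, 21.2% passed in either direction. DESeq2 called 3, where it called 9.89% of all genes, adding *Acss2* and *Idh1*, of which *Idh1* was named after its values were seen. The median log2FC of the 25 was -0.10.

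*Mid1ip1* (ENSMUSG00000008035, chromosome X, 10715013 to 10719690) encodes MIG12, a relative of the *Thrsp* protein that binds acetyl-CoA carboxylase and promotes its polymerization. It stood at 20.1, 12.7, 17.04, 9.82 and 13.2 CPM in GF+MEV and at 29.5, 41.8, 28.9, 39.1 and 35.0 CPM in GF+PBS. Every GF+MEV liver was below every GF+PBS liver. The log2FC was -1.26 (SE 0.21, edgeR adjusted p = 0.000187), and the call held in all 18 alternative settings. An exon of Gm14493 on the other strand covers 25.5% of its exonic length, and the sources used here do not say whether the counting used strand. Within GF+PBS it followed the order of the lipogenic genes, with replicates 1 and 3 below the other 3. The log2 ratio of *Thrsp* to *Mid1ip1*, a pair chosen after their values were seen, was 4.57 to 5.29 in GF+MEV and 2.44 to 3.62 in GF+PBS, a difference of 1.89 or 3.69-fold, given as a description with no test.

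Neighbours named by role did not pass. *Acss2*, which makes acetyl-CoA from acetate, had a log2FC of -0.32 (edgeR adjusted p = 0.0777), and *Elovl5*, an elongase of polyunsaturated fatty acids, one of 0.17 (edgeR adjusted p = 0.342). Without GF+MEV replicate 1 the count of neighbours called was 3, and without GF+PBS replicate 2 it was 4.

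Factors that control, cleave or share promoters with SREBP1 numbered 25, all tested. By edgeR 0 rose and 4 fell, *Usf1*, *Nfyb*, *Insig1* and *Xbp1*, which is 16.0% against 3.52% of all genes lower in GF+MEV. At an unadjusted p under 0.05, 2 had higher and 5 lower values, where 21.2% of all genes passed in either direction. DESeq2 called 5, where it called 9.89% of all genes, adding *Rxra* with a higher value, named after it was seen. Limma-voom called 4, where it called 7.79%. The median log2FC of the 25 was -0.03. *Insig1* encodes the protein that holds the SREBP escort SCAP in the endoplasmic reticulum, and it is itself a target of SREBP. It stood at 402, 346, 388, 299 and 327 CPM in GF+MEV and at 393, 547, 404, 477 and 502 CPM in GF+PBS, a log2FC of -0.40 (SE 0.12, edgeR adjusted p = 0.0255). Only GF+MEV replicate 1 reached the GF+PBS range. *Xbp1*, a factor of the unfolded protein response that also drives hepatic lipogenesis, fell, with 186 to 216 CPM in GF+MEV and 239.8 to 270.1 CPM in GF+PBS and no overlap (log2FC -0.39, edgeR adjusted p = 0.000752). *Usf1*, which binds E-boxes of lipogenic promoters, lay between 21.3 and 23.8 CPM in GF+MEV and 25.8 and 31.5 CPM in GF+PBS (log2FC -0.31, edgeR adjusted p = 0.0119). An exon of *Tstd1* on the same strand covers 7.13% of the exonic length of *Usf1*. *Nfyb*, a subunit of the CCAAT-binding NF-Y, had a log2FC of -0.30 (edgeR adjusted p = 0.0450).

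The calls of *Usf1* and *Xbp1* held in all 18 alternative settings, and those of *Insig1* and *Nfyb* were lost in 8 and 10. The count of regulators called was 2 without GF+MEV replicate 4, GF+MEV replicate 5, GF+PBS replicate 4 or GF+PBS replicate 5. It was also 2 with GF+PBS replicates 1 and 3, and 4 and 5, each summed. Other named regulators did not pass. ChREBP, *Mlxipl*, had a log2FC of -0.13 (edgeR adjusted p = 0.197), the liver X receptor *Nr1h3*, which activates *Srebf1*, one of -0.07 (edgeR adjusted p = 0.477), and *Insig2*, the second SCAP anchor, one of 0.30 (edgeR adjusted p = 0.258). *Insig2* stood at 247 and 250.4 CPM in GF+PBS replicates 1 and 3 and at 155, 159 and 156 CPM in replicates 2, 4 and 5, which is the reverse of the order of *Srebf1* and *Fasn* in these livers.

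**Figure D4:**
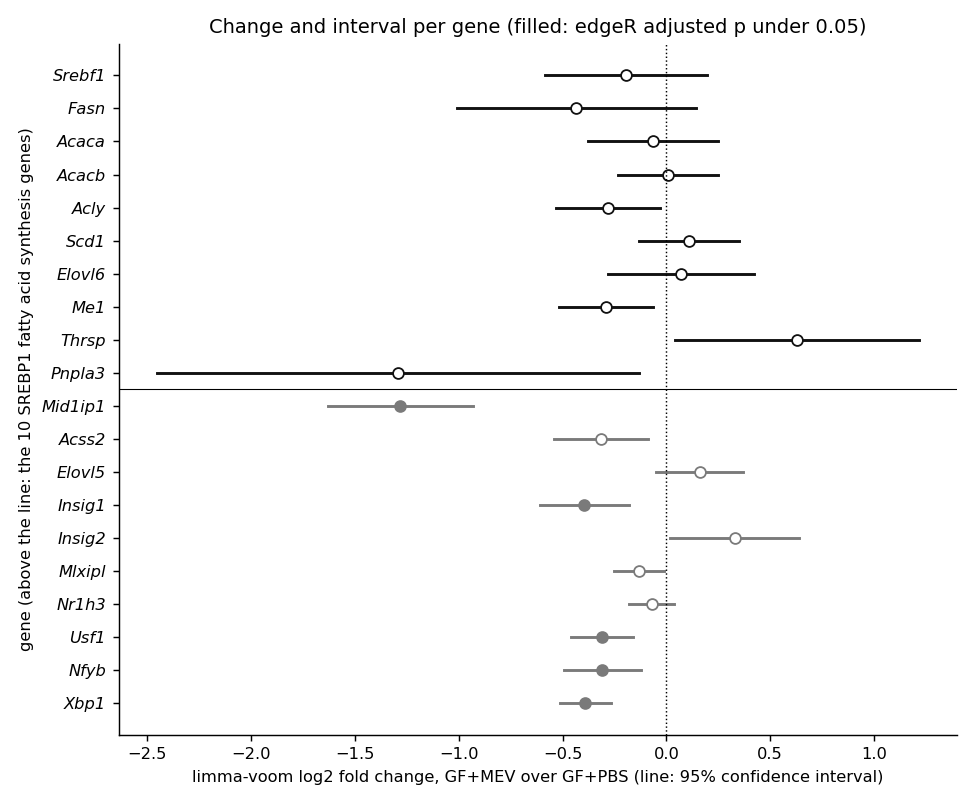
Limma-voom log2 fold change, GF+MEV over GF+PBS (horizontal), with its 95% confidence interval for each of the 10 genes (black, above the line) and for named neighbours and regulators (grey, below it), where filled points passed edgeR's adjusted threshold. No black point is filled, while *Mid1ip1*, *Insig1*, *Usf1*, *Nfyb* and *Xbp1* are filled and to the left of 0.

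Cholesterol synthesis and uptake, the branch driven mainly by SREBP2, was measured by 19 genes. By edgeR 0 rose and 5 fell in GF+MEV, among them *Mvd*, *Fdps*, *Lss* and *Sc5d*, which is 26.3% against 3.52% of all genes lower. At an unadjusted p under 0.05, 0 had higher and 8 lower values, where 21.2% of all genes passed in either direction. DESeq2 called 6 and limma-voom 5, where they called 9.89% and 7.79% of all genes. The median log2FC of the 19 was -0.18. *Sc5d*, an enzyme of the last steps to cholesterol, stood at 605, 563, 522, 546 and 566 CPM in GF+MEV and at 741, 723, 749, 794 and 816 CPM in GF+PBS. The groups did not overlap, and the fall of 0.45 on the log2 scale (edgeR adjusted p = 0.000203) held in all 18 alternative settings. *Mvd*, *Fdps* and *Lss* encode other enzymes of the same route. *Mvd* had a log2FC of -0.51 (edgeR adjusted p = 0.0252), *Fdps* one of -0.67 (edgeR adjusted p = 0.0355) and *Lss* one of -0.28 (edgeR adjusted p = 0.0304). These last calls were lost in 5 to 8 of the settings. An exon of Gm43738 on the same strand covers 26.7% of the exonic length of *Fdps*.

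The count of sterol genes called was 3 without GF+MEV replicate 1 or GF+PBS replicate 3, 2 without GF+MEV replicate 2, GF+MEV replicate 4 or GF+PBS replicate 4, and 1 without GF+MEV replicate 5 or GF+PBS replicate 2. With GF+PBS replicates 1 and 3, and 4 and 5, each summed, it was 1. *Srebf2* itself lay at 79.7 to 94.1 CPM in GF+MEV and 80.6 to 95.7 CPM in GF+PBS and was not called.

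The genes outside the 10 whose liver-to-liver pattern was most like that of *Srebf1* and *Fasn* were ranked by Pearson's r of log2 CPM minus the group mean over 10 livers, among the 11834 genes whose mean reached 1 CPM, with the 10 genes themselves left out of the ranking. *Srebf1* and *Fasn* had r = 0.99 with each other. For *Srebf1* these were *Epha1* (r = 0.99), *Esrra* (0.98), *Nub1* (0.97), *Aifm2* (0.97) and *Ppp6r1* (0.97). For *Fasn* they were *Esrra* (r = 0.99), *Epha1* (0.99), *Smoc1* (0.97), *Rnf145* (0.97) and *Klf10* (0.97). Both rankings draw on the same libraries and on the same divide between GF+PBS replicates 1 and 3 and the others, so r is a description.

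Markers of other cells were read in the same livers. Of 6 adipocyte markers, *Adipoq*, *Plin1*, *Lep*, *Cfd* and *Retn* had no row in the table used here, and *Fabp4* stood at 9.94 to 15.73 CPM in GF+MEV. In GF+PBS *Fabp4* was at 32.6 and 31.6 CPM in replicates 4 and 5, which were high for most of the 10 genes, at 8.13 CPM in replicate 2, which was high as well, and at 11.4 and 13.5 CPM in replicates 1 and 3. The 7 hepatocyte markers summed to 103567 to 120890 CPM in GF+MEV and 105358 to 120453 CPM in GF+PBS. By edgeR 2 of them, *Hnf4a* and *Cps1*, were higher, which is 28.6% against 4.12% of all genes. At an unadjusted p under 0.05, 5 of the 7 passed, all with higher values. Of all genes, 21.2% passed in either direction. The 5 Kupffer cell markers summed to 160.1 to 311 and 191 to 278 CPM, and the 5 stellate markers to 130.3 to 192 and 156 to 173 CPM, with 0 called in either by edgeR, DESeq2 or limma-voom. At an unadjusted p under 0.05, 0 Kupffer and 1 stellate marker passed.

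The 5 endothelial markers summed to 81.6 to 124 CPM in GF+MEV and 93.7 to 131 CPM in GF+PBS. By edgeR 1 of the 5 was higher, *Lyve1*, and 1 lower, *Clec4g*, against 4.12% and 3.52% of all genes. GF+PBS replicates 1 and 3 were both above replicates 2, 4 and 5 in 4 endothelial markers, and both below in 0. That is the reverse of the order in 9 of the 10 SREBP1 genes, and 15.4% of all genes had it. It was seen in 2 of the 5 stellate and 0 of the 5 Kupffer cell markers. Of 5 cholangiocyte markers *Krt7* and *Epcam* had no row, and the other 3 summed to 28.1 to 79.3 and 23.2 to 29.7 CPM. By edgeR 1 of these 3 was higher, *Krt19*, and 0 lower. At an unadjusted p under 0.05, 2 of the 3 had higher and 1 lower values, with log2FC from -0.98 to 3.87. Of 5 leukocyte markers *Cd3e* and *Ly6g* had no row, and the other 3 summed to 6.97 to 14.3 and 11.3 to 14.5 CPM. By edgeR 1 of these 3 was lower, *Cd79a*, and 0 higher. At an unadjusted p under 0.05, 2 of the 3 passed, both with lower values, where 21.2% of all genes passed in either direction. These marker genes were named after their values were seen, and their part in the differences above was not tested.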

How the data were processed

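RNA was extracted from whole liver of 10 germ-free mice and libraries were made with the NEBNext Ultra RNA kit. STAR 2.7.3a was used by the authors for alignment to GRCm38 and HTSeq for counting per Ensembl gene, genes under 20 counts over the samples were removed, and DESeq2 was their test. The values deposited by the authors were raw counts without normalization. The 5 columns of the table that match none of the described samples were not used. A total of 20 counts or more over the 10 libraries was required, which kept 12147 of 12148 genes. Counts were compared with edgeR 4.0.16 in R 4.3.3 (TMM, quasi-likelihood test, group as the only term, Benjamini-Hochberg over all genes tested). The SE was computed from the group SDs of log2 CPM (prior count 2). Symbols, positions and exons came from GENCODE M21, in which 10 identifiers had no symbol. Ratios to *Srebf1* were tested by exact two-sided permutation of the group labels. The edgeR, DESeq2 and limma-voom steps were tested on simulated data.

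The member genes and the lists around them were chosen with earlier results of these data known. Named in the text were all 10 genes, the genes of the neighbour, regulator and sterol lists past the edgeR threshold (except those not reported here by name) with at most 3 more per list by known role, and the 5 genes most like *Srebf1* and *Fasn*. Alternatives were DESeq2 1.42.0, limma-voom (limma 3.58.1), upper-quartile and RLE scaling, no filter or a minimum of 10 counts per library, a replicate block, each library left out in turn, and GF+PBS replicates 1 and 3, and 4 and 5, each summed. The *Thrsp* to *Mid1ip1* ratio and the limma-voom intervals were added after the values were seen. The split of GF+PBS replicates 1 and 3 from the others also comes from the values and not from the labels. Sequences were taken from RefSeq on GRCm38.p6. Some listed genes are counted with their lists but are not reported here by name.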

Additional observations from a re-analysis of the deposited data

Results flagged for a closer look

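Over 68 sets of 5 livers, Dixon's test at the 95% level marked 2 values as far from the rest of their group, where chance gives about 3.4. *Nfyb* in GF+PBS replicate 1 was 33.5 CPM, and the others lay between 27.2 and 28.7 CPM. The normalization (TMM) factor 0.890 of GF+MEV replicate 2 was low, and those of the other GF+MEV livers lay between 0.978 and 1.01. None of the 10 SREBP1 fatty acid synthesis genes and none of their ratios to *Srebf1* was marked in either group. Dixon's test looks for a single far value and can miss a pair that lies apart together, as GF+PBS replicates 1 and 3 do.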

How the results depend on the processing

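edgeR called 928 genes in all, 500 higher and 428 lower in GF+MEV. Over the 10 genes, 0 were called in the main result, and this count was 1 with DESeq2, 1 with upper-quartile scaling and 0 to 2 with each library left out in turn. Among neighbours, 1 was called, and 3 with DESeq2, 4 with upper-quartile scaling and 1 to 4 with a library left out. Among regulators 4 were called, and 2 to 4 with a library left out. Among sterol genes 5 were called, and 1 to 5 with a library left out. With GF+PBS replicates 1 and 3, and 4 and 5, each summed, 561 genes, 2 regulators and 1 sterol gene were called. That grouping was chosen from the values and leaves fewer GF+PBS units to compare. With a library left out the total was 696 to 926. Ratios to *Srebf1* past the adjusted threshold numbered 0, and 0 to 2 with a library left out, where a single ratio cannot pass alone. Upper-quartile scaling called 1040 genes, 41.2% of them higher against 53.9%, and moved the median log2 fold change of all genes to -0.046. The replicate block called 792 genes and 0 of the 10. Livers with the same number did not deviate together (r of -0.20 to 0.19, 1 of 5 best with its own number). No pairing by number was seen, but the check has no reference for paired livers and cannot exclude it.

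Of 162 pairs of a called gene and an alternative, over 9 genes, 124 kept the call and 38 lost it. Of 269 pairs over 15 genes without a call, 261 stayed without and 8 gained one. *Acacb* and *Elovl6* changed sign without a call in 7 and 6 settings. The cause of these changes was not tested. *Pnpla3* rests on 5 to 43 counts per library, which limits its precision.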
